A study of Mus musculus with 6 samples.

Results

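The sites described here are the E2A binding regions of mouse neural stem cells that had the tallest ChIP-seq signal in one wild-type library and were also called in every other library. E2A occupancy was mapped by chromatin immunoprecipitation and sequencing in neural stem cells of C57BL/6J embryos (E12.5) grown under proliferation conditions, with 20 ng/ml FGF-2 and 20 ng/ml EGF. Peak lists came from 3 wild-type libraries, 1 library of E12 KO cells and 1 of E47 KO cells, all precipitated with the same E2A antibody (sc-349X) after fixation with 1.5 mM EGS for 20 min and 1% formaldehyde for 10 min. The wild-type lists held 6814, 12772 and 24194 peaks (replicates 1, 2 and 3), the E12KO list 25229 and the E47KO list 22176. The labels do not give the promoter or design of the knockout alleles, whether cells of several embryos were pooled, or whether the 3 wild-type libraries came from separate cultures. A site was taken when its peak in wt replicate 1 had a summit pileup, the number of stacked sequenced fragments at the peak's highest point, of 80 or more and shared at least 1 bp with a peak in each of the other 4 lists. This gave 316 sites, 4.64% of the 6814 peaks of wt replicate 1. Only wt replicate 1 has a pileup and a fold enrichment for each peak in the tables used, so signal height was read in that library alone and the other lists gave position, width, annotated gene and distance. Because the sites were chosen on these readouts and each knockout is 1 library, all values are descriptions and no test was made.

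E2A, encoded by the Tcf3 gene, gives rise to the splice forms E12 and E47, basic helix-loop-helix transcription factors that differ in their DNA-binding and dimerisation domain. E proteins bind the E-box, the sequence CANNTG, as homodimers or as heterodimers with tissue-restricted partners such as the proneural factors. Id proteins lack the basic DNA-binding region and keep E proteins off DNA. In neural progenitors, Notch signalling through the Hes factors holds back the proneural factors. In cells that lack 1 splice form the gene can still make the other, and the labels do not say which forms the antibody binds.

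At 10 sites the wt replicate 1 peak covers a whole promoter of a gene with 1 listed start. For these 10 the sequence under that peak could be read. Of these, 5 held the E-box CAGCTG or CAGGTG on either strand in the 250 bases before the RefSeq start, against 6269 of all 22862 genes with 1 start in the table (27.4%). They are shown with the stretches of the 2 highest-pileup sites that held none. The sequences are RefSeq's on GRCm38.p6, written 5′ to 3′ in the direction of transcription and ending at the base before the start, with the E-boxes in capitals. CAGGTG on the other strand reads as CACCTG, and CAGCTG reads the same on both. The peaks were placed relative to the mm9 gene start in the deposited tables, which may differ from the RefSeq start.
Hes5 (chr4:154960673-154960922, plus strand): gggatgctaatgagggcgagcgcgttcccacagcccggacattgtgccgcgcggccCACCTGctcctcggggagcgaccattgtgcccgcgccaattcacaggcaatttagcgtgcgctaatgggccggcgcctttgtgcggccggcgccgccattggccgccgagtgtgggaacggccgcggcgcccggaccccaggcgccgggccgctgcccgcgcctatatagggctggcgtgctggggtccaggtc
Frmpd1 (chr4:45184656-45184905, plus strand): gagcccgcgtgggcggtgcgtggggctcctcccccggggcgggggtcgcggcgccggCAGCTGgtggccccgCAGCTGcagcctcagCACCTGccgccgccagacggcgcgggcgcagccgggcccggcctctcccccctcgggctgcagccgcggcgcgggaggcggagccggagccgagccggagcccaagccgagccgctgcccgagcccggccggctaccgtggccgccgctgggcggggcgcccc
Epc2 (chr2:49451236-49451485, plus strand): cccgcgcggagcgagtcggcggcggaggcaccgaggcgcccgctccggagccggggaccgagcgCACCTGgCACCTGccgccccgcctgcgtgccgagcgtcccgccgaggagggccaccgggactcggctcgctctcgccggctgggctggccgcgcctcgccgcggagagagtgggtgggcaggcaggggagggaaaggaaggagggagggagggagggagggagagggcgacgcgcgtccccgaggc
Ephb3 (chr16:21204545-21204794, plus strand): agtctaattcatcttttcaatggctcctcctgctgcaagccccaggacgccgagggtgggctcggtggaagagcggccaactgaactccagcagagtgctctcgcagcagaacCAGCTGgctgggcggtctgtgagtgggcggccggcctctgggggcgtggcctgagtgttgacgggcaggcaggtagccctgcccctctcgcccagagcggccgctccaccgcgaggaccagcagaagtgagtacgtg
Hivep2 (chr10:13966129-13966378, plus strand): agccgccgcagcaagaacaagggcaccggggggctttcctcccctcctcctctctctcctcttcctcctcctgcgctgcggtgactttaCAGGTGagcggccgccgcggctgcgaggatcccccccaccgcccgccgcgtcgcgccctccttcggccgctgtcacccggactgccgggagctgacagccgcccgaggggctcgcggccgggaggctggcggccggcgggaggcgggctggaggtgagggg
Ssbp2 (chr13:91460847-91461096, plus strand): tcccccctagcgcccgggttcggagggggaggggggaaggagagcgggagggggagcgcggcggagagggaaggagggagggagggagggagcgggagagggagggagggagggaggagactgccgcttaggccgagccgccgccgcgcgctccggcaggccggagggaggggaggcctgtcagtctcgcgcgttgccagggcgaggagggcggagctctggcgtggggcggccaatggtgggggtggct
Ankrd17 (chr5:90366186-90366435, minus strand): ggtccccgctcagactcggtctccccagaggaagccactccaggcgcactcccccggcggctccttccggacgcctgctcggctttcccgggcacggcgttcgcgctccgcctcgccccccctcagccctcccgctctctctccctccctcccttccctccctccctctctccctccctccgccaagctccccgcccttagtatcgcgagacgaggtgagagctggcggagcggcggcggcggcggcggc

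Hes5, a Notch effector that represses proneural genes, had its E-box 194 bases before the start and its wt replicate 1 summit 221 bases before the annotated start. Frmpd1, which encodes a FERM and PDZ domain protein, had 3 E-boxes, at 193, 178 and 163 bases, with the summit at 221 bases. Epc2, a subunit of a histone acetyltransferase complex, had 2 adjacent E-boxes at 186 and 179 bases and a summit at 131 bases. Ephb3, a receptor for ephrins in cell contact and axon guidance, had 1 at 137 bases and a summit at 65 bases. Hivep2, a zinc-finger transcription factor, had 1 at 161 bases and a summit at 97 bases. The 5 were chosen for an E-box in a stretch that the wt replicate 1 peak covers, which limits the distance between E-box and summit. Not every list covered the E-box. By the annotated start, the wt replicate 2 peak at Epc2 began 12 bp downstream of the start and missed both E-boxes. At Ephb3 the wt replicate 2 peak, 326 bp wide against 773 bp in wt replicate 1, began between the E-box and the start.

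Of the 37 sites annotated as promoter, 27 had a gene in the RefSeq promoter table, with 44 starts. CAGCTG or CAGGTG, searched on both strands, was in 17 of the 44 stretches (38.6%), against 9113 of all 32851 stretches of the same length (27.7%). CAGCTG was in 10 of the 44 against 4271 of all, and CAGGTG, which can be in the same stretch, in 11 of the 44 against 5657 of all. Any CANNTG, which includes these, was in 68.2% against 66.2%, and the SOX sequences ACAAAG or ACAATG in 29.5% against 25.2%. CATCTG was in 9.09% against 14.4%, CACGTG in 4.55% against 6.02% and CATATG in 4.55% against 3.46%. The palindromic NFI motif was in 0 of the 44 and in 0.0365% of all, and the RFX motif was in 1 of the 44 against 80 of all. Starts of 1 gene are not independent. Their stretches overlap at Tmtc4 but lie far apart at others, such as Plxnb2 (chr15:89180789-89181038 and chr15:89173952-89174201). Some of the 44 stretches thus lay outside the peak of their site. A match describes the letters of this window only. No sequence was read at the sites away from promoters.

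In wt replicate 1, 409 of the 6814 peaks (6.00%) had a pileup of 80 or more, and 316 of these (77.3%) were in every other list. Over all wt replicate 1 peaks, 4192 (61.5%) were in every other list. The 316 sites had a median pileup of 105, with quartiles of 89 and 137 and a range from 80 to 421. Their fold enrichment, the pileup over the local background as the peak caller gave it, had a median of 29.8 and quartiles of 22.9 and 37.7. The 3876 peaks under the minimum that were in every list had a median pileup of 27 and a median fold of 8.19. The selection fixes that order. Within the sites, pileup and fold rose together, with a Spearman rho of 0.746 over 316 sites of 1 library, in which fold is itself computed from the pileup. At the lower bound, 8 sites had a pileup of 80, with folds of 13.03 to 28.8 and a median of 21.6. They included Tle2, Fto and Fam222b, which had the lowest folds. Just outside, 9 shared peaks had a pileup of 79, with folds of 16.9 to 28.5 and a median of 26.8. They included those near Gm10272, Vrk1 and Ripk2, which had the highest.

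**Figure D1:**
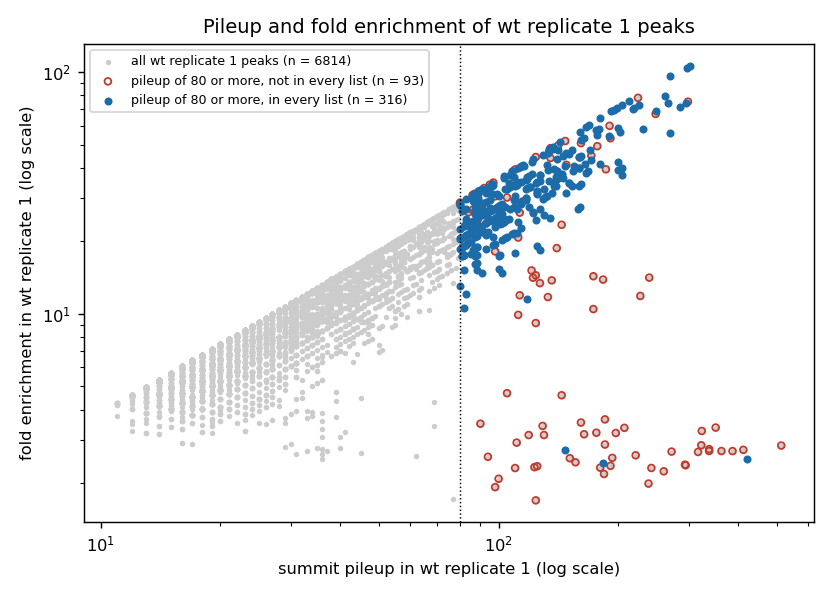
Summit pileup (x axis, log scale) against fold enrichment (y axis, log scale) for each of the 6814 peaks of wt replicate 1, with the 316 sites filled, the 93 high peaks missing from some list as open circles and the minimum of 80 as a dotted line. All but 3 of the 316 sites have a fold of at least 10.5, while 44 of the 93 others lie under a fold of 5.

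Sharing did not simply rise with pileup. From a pileup of 11 to 19, 41.2% of wt replicate 1 peaks were in every list, from 60 to 79 it was 88.9%, and from 80 to 119 it was 87.8% (Wilson 95% interval 83.0 to 91.4, counting error only). The share was lower above that, 73.3% from 120 to 179 and 46.0% of the 63 peaks from 180 to 513 (34.3 to 58.2). Among peaks with a fold of 5 or more, a limit set after the data were seen, the shares in the top 3 bands were 91.0%, 80.8% and 75.0%. The last is of 36 peaks, with a Wilson 95% interval of 58.93 to 86.25. Of the 93 high peaks that were not in every list, 66 were in none of the other 4 and 13 were missing from wt replicate 2 only. In all, wt replicate 2 lacked 92 of the 93, wt replicate 3 lacked 70, E12KO 71 and E47KO 75. The 44 with a fold under 5 were absent from all 4 other lists. They included 24 peaks at chr9:3000124-3038170 (mm9) with folds of 1.98 to 3.65, 5 at chr17:39980063-39985685 and 3 at chr2:98502314-98507561, which held the highest pileup of the list, 513. Another 15 lay at chr6:47604869-47722525 with folds of 9.15 to 18.7. These neighbouring peaks of 1 region are counted singly in the shares of the top 3 bands, also with the fold limit, and are not independent. Between these 15 lay 1 of the 316 sites, Rn4.5s (chr6:47635151-47635776), with a pileup of 118 and a fold of 11.5. Its peaks were 626, 1230, 1245, 1298 and 1633 bp wide in wt replicates 1, 2 and 3, E12KO and E47KO. In the other 4 lists they all started at the same base, 47635301.

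**Figure D2:**
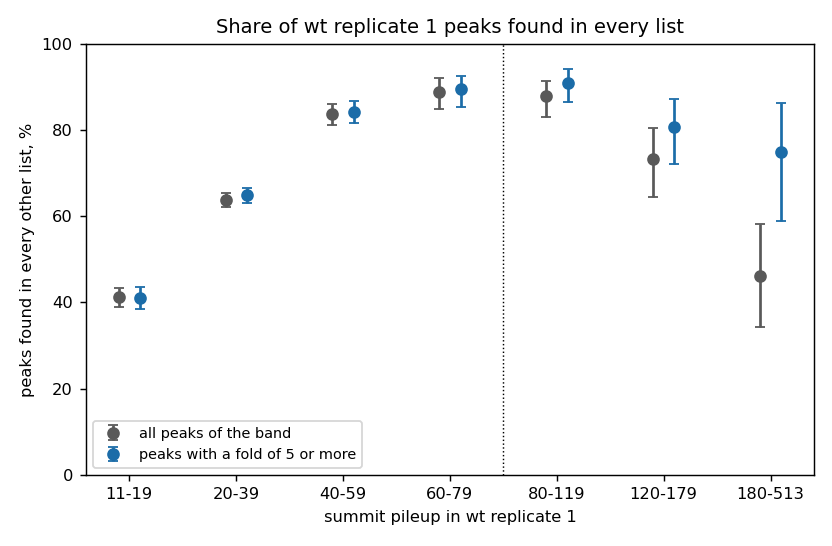
Share of wt replicate 1 peaks found in every other list (y axis, percent) by band of summit pileup (x axis), for all peaks and for peaks with a fold of 5 or more, with Wilson 95% intervals that cover counting error only. The share peaks at 88.9% in the band of 60 to 79 and falls to 46.0% for all peaks in the highest band, against 75.0% with the fold limit.

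The site with the highest pileup, annotated to Tmx3, went against the others. Its peak at chr18:90771504-90772084 had a pileup of 421 but a fold of 2.51, and it was 581 bp wide in wt replicate 1. It was 27 bp wide in wt replicate 2, 18 in wt replicate 3, 23 in E12KO and 25 in E47KO, each starting at the same base, 90772001. The Mid1 site on chromosome X had a pileup of 183, a fold of 2.41 and widths of 462, 95, 93, 93 and 94 bp, with the lists in the same order. The Ptchd3 site on chromosome 11 had a pileup of 147, a fold of 2.73 and widths of 466, 363, 331, 339 and 345 bp. Each of the 3 is the last peak of its chromosome in all 5 lists. The other 313 sites had folds of 10.5 or more, and over these the Spearman rho of pileup and fold was 0.788.

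After Tmx3, the 24 sites with the highest pileup had folds of 37.5 to 106 and lay at varied positions. The Gng13 site (chr17:25805070-25806039), 48464 bp upstream of a G-protein gamma subunit gene, had a pileup of 303 and the highest fold, 106. Its peak was 970 bp wide in wt replicate 1, 697 in wt replicate 2, 2351 in wt replicate 3, 1270 in E12KO and 2051 in E47KO, the order in which all sets of 5 widths are given. Here wt replicate 3 had the widest peak and wt replicate 2 the narrowest.

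The Pabpc6 site (chr17:9967851-9969847) had a pileup of 297 and a fold of 103.6. It lay in an exon of a transcript with no gene number in the tables, 106523 bp upstream of Pabpc6, a poly(A)-binding protein gene. Its widths were 1997, 1900, 2476, 2415 and 2417 bp, with both knockouts inside the span of the wild-type lists.

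Brd7, a bromodomain subunit of a chromatin remodelling complex, had a site 15155 bp upstream (chr8:90900746-90901621) with a pileup of 295, a fold of 74.4 and widths of 876, 1105, 1195, 1363 and 1310 bp. Jmjd1c, which encodes a Jumonji-domain protein of the histone demethylase family, had one at 77027 bp upstream (chr10:66481437-66482385) with a pileup of 285, a fold of 71.9 and widths of 949, 844, 960, 970 and 1007 bp. Both sites were wider in the knockouts than in any wild-type list, by more at Brd7 than at Jmjd1c.

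Mcur1, a regulator of mitochondrial calcium uptake, had one at 28831 bp downstream with a pileup of 270 and a fold of 55.8. Rplp1, a ribosomal stalk protein gene, had one at 52238 bp downstream with a pileup of 248 and a fold of 69.0. The Ntsr2 site, near a neurotensin receptor gene, was 9308 bp upstream with a pileup of 230. Tssc1 had one with a pileup of 225. The gene is the one the tables annotate, mostly by its start, and contact of a distal site with it was not measured. Eya2, a transcriptional coactivator with phosphatase activity, had a site 31407 bp upstream with a pileup of 212 and widths of 777, 614, 765, 778 and 708 bp, which differed little between lists. Atoh8, a basic helix-loop-helix factor, had a site in its own intron 1 (chr6:72166312-72167542) with a pileup of 219, a fold of 71.3 and widths of 1231, 1087, 1302, 1879 and 1302 bp. E12KO had the widest Atoh8 peak. Nrsn1, Exosc9, Zmiz1 and Ass1 followed with pileups of 204, 202, 200 and 200, and Gm14461, Ccr6 and Glis2 with 198, 195 and 192.

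Promoters were a minor class among the sites. By the deposited annotation, 37 sites (11.7%, Wilson 95% interval 8.62 to 15.7) lay at a promoter, 119 (37.7%) in an intron, 29 of them in the first intron, and 135 (42.7%, 37.4 to 48.2) were distal intergenic. The rest were 13 exonic sites, 7 downstream of a gene, 3 in a 5′ UTR and 2 in a 3′ UTR. Among shared peaks under the pileup minimum 17.1% were at promoters (15.9 to 18.3), and among all wt replicate 1 peaks 23.1% (22.1 to 24.1). Introns held 38.4% and 35.2% of these classes, and 37.5% and 35.2% were distal intergenic. Promoters took 22.6% of the 93 high peaks that were missing from some list, and 19 of the 49 of these with a fold of 5 or more (38.8%, 26.4 to 52.8). Summits of 102 sites (32.3%) lay within 10 kb of the annotated start, against 32.4% of shared peaks under the minimum and 38.1% of all wt replicate 1 peaks. Beyond 50 kb lay 110 sites (34.8%), against 34.1% and 31.0% in the same order, and beyond 100 kb lay 65 (20.6%), against 19.4% and 17.6%. In these distances the sites were near the other shared peaks.

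At promoters, the 4 sites with the highest pileup were those of Ube2r2, Slc25a15, Ssbp2 and Ankrd17. Ube2r2, a ubiquitin-conjugating enzyme, had a pileup of 269, a fold of 96.1 and widths of 861, 985, 1673, 1506 and 676 bp. Slc25a15, the mitochondrial ornithine carrier, had a pileup of 262, a fold of 79.8 and widths of 960, 371, 782, 721 and 700 bp. Ssbp2, a single-stranded DNA-binding cofactor of LIM homeodomain complexes, had a pileup of 217 and widths of 865, 476, 1211, 1266 and 1234 bp. Ankrd17, an ankyrin-repeat protein, had a pileup of 204 and widths of 1054, 718, 1639, 1692 and 1092 bp. In wt replicate 2, 3 of these 4 promoter peaks were narrower than in wt replicate 1.

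The annotated gene was the same in all 5 lists at 316 of the 316 sites, against 99.3% of the 3876 shared peaks under the minimum. The class of the annotation was the same in all lists at 302 sites (95.6%), against 92.9%. Promoter calls numbered 37, 39 and 41 over the wild-type replicates and 43 for each knockout, and all 5 lists had 135 distal intergenic sites. The table of wt replicate 1 calls a promoter up to 2000 bp from the far edge of a peak and the others up to 999 bp from the near edge. With the latter rule wt replicate 1 also had 37, the same sites. Distances in the table of wt replicate 1 run to the far edge of the peak and those in the other tables to the near edge, so the summit was used for wt replicate 1. The tables' median distance was 27893.5 bp for wt replicate 1, 26994.5 bp for replicate 2, 26940 bp for replicate 3, 26927.5 bp for E12KO and 26969 bp for E47KO.

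The 316 sites named 294 genes, of which 273 are protein-coding, 1.25% of the 21900 protein-coding genes in RefSeq's table (GRCm38.p6). A peak shared by all lists, of any pileup, was annotated to 11.6% of them. More than 1 site was annotated to 21 genes. Sites were spread over 20 chromosomes, with 30 on chromosome 4. Of 137 sites inside transcripts, 100 lay in the gene they were annotated to and 19 in another gene, such as the higher Etv5 site in an intron of Dgkg, the Kdm6b site in Dnah2 and the Stat5a site in Stat3.

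Of 320 genes in 17 lists of pathways and cell types, 31 had a site, with 39 sites in all, 9.69% of the genes against the 1.25% above. The lists hold genes chosen for this tissue with earlier results known, so the 2 shares are not a comparison of like sets. The E protein and Id list had the highest share, 5 of 7 genes with 6 sites, all outside the gene body. Id1, an E protein inhibitor that is a target of BMP signalling, had a site at chr2:152560601-152561267, 1134 bp upstream, with a pileup of 129, a fold of 45.2 and widths of 667, 587, 935, 812 and 823 bp. Its distance upstream was 867 bp for wt replicate 2, 564 bp for replicate 3, 757 bp for E12KO and 698 bp for E47KO, so both knockouts fell between these wild-type lists on width and distance.

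Id2 had a site 2753 bp upstream (chr12:25783291-25784183) with a pileup of 117, a fold of 35.8 and widths of 893, 1142, 1257, 992 and 1220 bp. Id3 had 2 sites, 4629 bp apart. The nearer, 3265 bp upstream (chr4:135696159-135696874), had a pileup of 150, a fold of 34.7 and widths of 716, 883, 1383, 1254 and 1343 bp. The farther Id3 site, 8506 bp upstream, had a pileup of 82 and widths of 659, 453, 1262, 2242 and 1155 bp, and E12KO had the widest peak there. Id4 had one 62984 bp downstream with a pileup of 85, a fold of 21.6 and widths of 626, 753, 960, 905 and 904 bp. Tcf4, another E protein gene, had a site 367974 bp upstream with a pileup of 82, a fold of 17.6 and widths of 932, 1137, 1774, 1733 and 1626 bp.

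In the Notch list, 4 of 27 genes had a site, with 5 sites. Hes5 had 2, with a gap of 1218 bp. The one over the promoter (chr4:154334317-154335521) had a pileup of 199, a fold of 58.8 and widths of 1205, 837, 1293, 1534 and 1307 bp, and every list gave it a distance of 0. The upstream one (chr4:154332306-154333098) had a pileup of 134, a fold of 35.4 and widths of 793, 664, 776, 938 and 749 bp. The 2 stayed separate peaks in every list.

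Hes6, a Hes family member that promotes neurogenesis, had a site 1044 bp upstream (chr1:93310469-93311115) with a pileup of 93, a fold of 31.5 and widths of 647, 1351, 2057, 1887 and 1751 bp. Dll1, a Notch ligand, had a site 1282 bp upstream (chr17:15513720-15514339) with a pileup of 81, a fold of 26.6 and widths of 620, 838, 2270, 3204 and 2007 bp. The Dll1 peak spanned the start, at a distance of 0, in wt replicate 3, E12KO and E47KO, and stopped 973 bp short of it in wt replicate 2. Notch1, a Notch receptor, had a site inside the gene, in intron 32 of 33 (chr2:26342525-26343691), with a pileup of 83, a fold of 23.3 and widths of 1167, 1803, 3170, 2982 and 1926 bp. At the Hes6 and Notch1 sites wt replicate 3 had the widest peak, and at Dll1 it was E12KO.

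The proneural list had a site at 2 of 16 genes, Olig1 and Olig2, helix-loop-helix factors of the oligodendrocyte lineage that dimerise with E proteins and are neighbours on chromosome 16. In wt replicate 1 Olig1 had 2 sites only 191 bp apart, 36150 and 34693 bp downstream of its start, with pileups of 179 and 133 and folds of 58.3 and 46.1. They were 1439 and 1107 bp wide. Each of the other lists joined them into 1 peak, of 2758 bp in wt replicate 2, 2660 bp in replicate 3, 3101 bp in E12KO and 2889 bp in E47KO, so the 316 sites correspond to fewer peaks there. The Olig2 site, 33530 bp upstream (chr16:91191579-91192682), had a pileup of 96 and widths of 1104, 2025, 2088, 2356 and 2168 bp. Zfp488, an oligodendrocyte zinc-finger factor, had a site in its own intron with a pileup of 96 and widths of 594, 569, 707, 1009 and 644 bp. The only other pair of sites joined into 1 peak was at Igsf9b, joined in wt replicate 3, E12KO and E47KO.

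Corepressor and chromatin genes gave the most sites, 14 at 10 of 28 genes. Brd7 and Jmjd1c were put on that list with their sites known, so its count is not independent of these data. The Groucho-family genes Tle1, Tle2, Tle3 and Tle4, corepressors that Hes proteins recruit, had 6 sites. The Tle3 site 1775 bp upstream (chr9:61218078-61218739) had a pileup of 204, a fold of 37.5 and widths of 662, 1337, 3854, 5960 and 2760 bp, the widest E12KO peak among the sites. It was distal intergenic in wt replicate 1 and promoter in the other 4 lists, with distances of 856 bp upstream in wt replicate 2 and 0 in wt replicate 3, E12KO and E47KO. In wt replicate 1 its near edge lay 1434 bp from the start, outside the promoter range of both rules. Its second site, 157000 bp downstream, had a pileup of 87 and widths of 687, 770, 815, 1311 and 852 bp.

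Tle1 had a promoter site (chr4:71861738-71862512) with a pileup of 88, a fold of 15.2 and widths of 775, 1082, 1515, 1815 and 2066 bp, and a site 380166 bp downstream with a pileup of 127 and widths of 877, 1093, 820, 884 and 861 bp. The distant Tle1 site was widest in wt replicate 2, while the promoter site was widest in E47KO. Tle4 had a promoter site with a pileup of 91 and widths of 690, 809, 1659, 1461 and 1224 bp. The Tle2 site, 4497 bp upstream, had a pileup of 80 and widths of 656, 769, 1669, 1930 and 1899 bp. Hdac7, a class IIa histone deacetylase, had a pileup of 95, Chd7, a chromodomain remodeller, 127, and Kdm6b, an H3K27 demethylase, 86.

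In the FGF and EGF list, 3 of 24 genes had a site. Etv5, an ETS factor induced by FGF signalling, had 2 sites, 69720 and 78344 bp upstream, with pileups of 267 and 160 and folds of 74.3 and 27.6. The higher (chr16:22508903-22509781) was 879, 1428, 1635, 1605 and 1337 bp wide, and the other 1059, 1274, 1373, 1331 and 1011 bp. Both were widest in wt replicate 3. Egfr, the EGF receptor, had a site with a pileup of 114 and widths of 1330, 1012, 1196, 1207 and 1234 bp, and Lrig1, a negative regulator of EGF receptor signalling, one with a pileup of 89.

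Other list genes had 1 site each. Nfia, a Nuclear factor I gene of gliogenesis, had a pileup of 138 at 163140 bp upstream, and Sox3, a SoxB1 factor of neural progenitors, 114 at 67706 bp downstream. Of cell cycle genes, the anti-proliferative Btg1 and Btg2 had pileups of 99 and 85, and the drivers E2f1 and Mycn 86 and 82. Sox11 and Sox21, named after their values were seen, had pileups of 120 and 83. No site was annotated to a gene of 7 lists: Sonic hedgehog, Wnt, BMP and TGF-beta, neuronal, housekeeping, lymphoid and muscle, and endothelial, mural and microglial genes. These lists hold 12 to 32 genes and 1.25% of all coding genes had a site, so none is near that share. Lower peaks in every list were at 5 of 12, 13 of 32, 9 of 31 and 10 of 24 genes of the first 4. In the last 3 they were at 3 of 14, 1 of 21 and 4 of 18, against 11.6% of all coding genes. Of the neural stem cell markers Nes, Sox1, Sox2, Sox9, Pax6, Vim, Fabp7, Hes1, Hes5, Msi1, Slc1a3 and Prom1, 11 of 12 had a peak in every list and only Hes5 had a site. Of microglial markers 0 of 6 had a peak in every list, of endothelial 3 of 6, of mural and fibroblast 1 of 6, of neuronal 3 of 6 and of oligodendrocyte lineage 3 of 6. Sites were at 2 of the 6 oligodendrocyte lineage markers, Olig1 and Olig2, and at 0 of 6 in each of the other 4 groups. A binding site near a marker does not measure its expression.

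Several sites were annotated to microRNA genes, a group named after the values were seen. They were Mir125b-1, Mir3089, Mir9-3, Mirlet7c-2, Mir2861 and Mir9-1. The mature RefSeq sequences of 3 families are given because the pair Mir9-1 and Mir9-3, on different chromosomes, yields the same microRNA. The seed, bases 2 to 8, is in capitals.
mmu-miR-9-5p: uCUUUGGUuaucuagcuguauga
mmu-miR-9-3p: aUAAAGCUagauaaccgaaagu
mmu-miR-125b-5p: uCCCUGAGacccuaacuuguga
mmu-let-7c-5p: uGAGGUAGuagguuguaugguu
The 4 seeds shown differ from one another. MiR-9 is a brain-enriched microRNA of neural progenitors. Mir9-3 had sites in its host transcript (chr7:86676064-86677131 and chr7:86670544-86671413) with pileups of 119 and 82 and folds of 27.6 and 19.1. Their widths were 1068, 1068, 1337, 1265 and 1420 bp and 870, 898, 1160, 1091 and 1234 bp, both widest in E47KO. The Mir9-1 site (chr3:88025265-88026759), 6148 bp downstream, had a pileup of 85, a fold of 22.5 and widths of 1495, 1847, 2984, 3695 and 3172 bp, and was wider in both knockouts than in any wild-type list. Mir125b-1 had a site 154060 bp downstream with a pileup of 138, and Mirlet7c-2 one 53214 bp upstream with a pileup of 91. Mir3089 had one 27973 bp upstream with a pileup of 132, a fold of 41.1 and widths of 986, 1254, 1935, 2149 and 2004 bp, and Mir2861 one at its promoter with a pileup of 86 and widths of 802, 623, 1148, 1300 and 1406 bp. Among guidance receptors and ligands, also named after the values were seen, Sema6d had a pileup of 165, Plxnb2 164 and Ephb3 143.

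Width could be compared between the lists. The sites had a median width of 756.5 bp in wt replicate 1, 780.5 in replicate 2, 1123.5 in replicate 3, 1240 in E12KO and 1123 in E47KO. The mean of the 3 wild-type medians was 887 ± 205 bp (SD, n = 3). The median of all peaks was 432.5, 420 and 549 bp over the wild-type lists, 616 bp for E12KO and 550 bp for E47KO, so the sites were 1.75, 1.86, 2.05, 2.01 and 2.04 times as wide as their list's median. Most of that comparison set was not shared by all lists. Shared peaks under the pileup minimum had medians of 458.5, 548, 833, 923 and 809 bp in the same order, nearer to the sites. The list medians followed the same order of lists as the sites, apart from wt replicates 1 and 2, which were reversed, and wt replicate 3 and E47KO, which differed by 1 bp or less. Peaks of 2000 bp or more numbered 1, 5 and 32 of the 316 over the wild-type replicates, 47 for E12KO and 33 for E47KO. Over all peaks of each list, such peaks made up 0.0587%, 0.1566% and 1.149% in the wild-type replicates. They made up 2.018% in E12KO and 1.118% in E47KO. E12KO was thus highest over its whole list as well as at the sites, and wt replicate 3 and E47KO were close in both. Across the sites, pileup and width in wt replicate 1 had a Spearman rho of 0.280, and pileup in wt replicate 1 and width in any other list between -0.0293 and 0.0668. Choosing sites on pileup narrows its range, so these values hold within the sites only. Shared peaks under the minimum had a lower median width in every list, as given above.

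**Figure D3:**
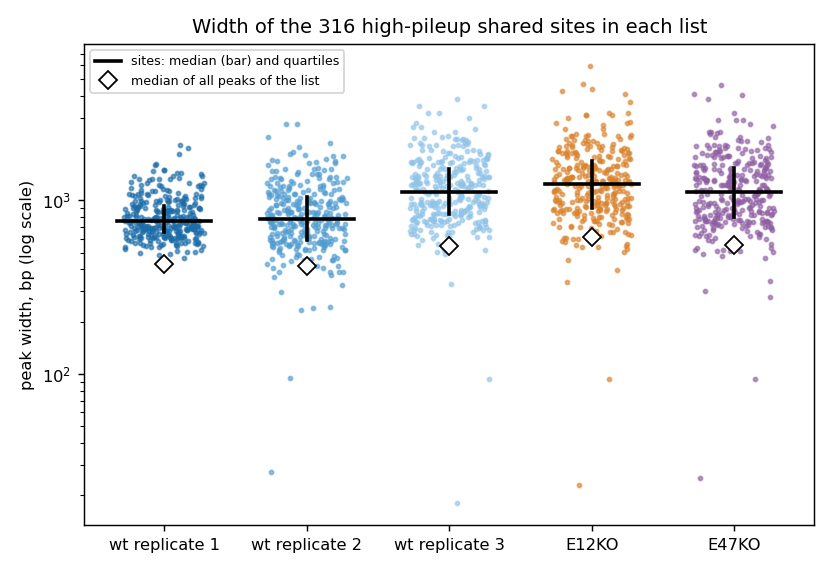
Peak width (y axis, bp, log scale) at each of the 316 sites in the 5 lists (x axis), with the median and quartiles as bars and the median of all peaks of the list as a diamond. The sites of wt replicate 3, E12KO and E47KO have medians of 1123.5, 1240 and 1123 bp against 756.5 and 780.5 bp in wt replicates 1 and 2, and the 2 lowest points of each of the other 4 lists are the Tmx3 and Mid1 sites.

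The E12KO peak was wider than in all 3 wild-type lists at 197 of 316 sites (62.3%), and this held at 61.9% of all 4192 peaks in every list. It was narrower than in all 3 at 2 sites, against 0.525% of all. The E47KO peak was wider than in all 3 wild-type lists at 135 sites (42.7%), against 41.5%, and narrower at 11, against 2.86%. The sites' shares were thus near the background. The wild-type lists differed among themselves as well: wt replicate 3 was wider than wt replicates 1 and 2 at 259 sites (82.0%), against 87.2% of all shared peaks. Against wt replicate 3 alone, the wild-type list nearest to the knockouts in number of peaks, the median width ratio was 1.07 in E12KO, with 213 sites wider and 102 narrower, and 0.989 in E47KO, with 149 wider and 165 narrower. E12KO to E47KO had a median ratio of 1.07, with 212 wider and 103 narrower. In these 3 comparisons 67.4%, 47.2% and 67.1% of the sites were wider. Among shared peaks under the pileup minimum 64.3%, 44.0% and 68.6% were wider, with median ratios of 1.07, 0.971 and 1.11. The sites were thus near the other shared peaks here too. With 1 library for each knockout, genotype and library cannot be told apart.

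The widest sites in E12KO were Tle3 at 5960 bp, Bcan at 4709, Hivep2 at 4358, Traf4 at 4285 and Galnt2 at 4124. Bcan, the gene of the proteoglycan brevican, was 1211, 2325, 3193, 4709 and 4601 bp wide across the lists and reached the start only in wt replicate 3 and the knockouts. Hivep2 was 1027, 1473, 3488, 4358 and 3851 bp wide. Traf4, a signalling adaptor, was 1013, 627, 1291, 4285 and 4030 bp wide, and its peak was annotated as exon in the wild-type lists and promoter in both knockouts. At all 5 except Tle3 in E47KO, both knockout peaks were wider than any wild-type peak. These were picked for their E12KO width. The narrowest in E12KO were Tmx3, Mid1, Ptchd3, Tmem181b-ps and Tox3. At Tmem181b-ps, a pseudogene with a fold of 10.5, the peaks of the other 4 lists all ended at base 6476000 of chromosome 17.

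The summit of wt replicate 1 was covered by the wt replicate 2 peak at 307 sites (97.2%, Wilson 95% interval 94.7 to 98.5) and by the peak of wt replicate 3, E12KO and E47KO at 314 each (99.4%, 97.7 to 99.8). The 2 sites missed in wt replicate 3 and both knockouts were Tmx3 and Mid1. In wt replicate 2 the summit was also missed at Ube2r2, Slc25a15, Ssbp2, Epc2, Ash1l, Efhd2 and Mex3b, of which all but Efhd2 are promoter sites. Peak centres of the other lists were offset from the wt replicate 1 summit. The median offset was 83 bp in wt replicate 2, 94 in wt replicate 3, 115 in E12KO and 100.5 in E47KO. Over the shared peaks under the pileup minimum the summit was covered at 96.3% in wt replicate 2, 99.5% in replicate 3, 99.8% in E12KO and 99.4% in E47KO, and the offsets were 68.5, 87, 97.5 and 86 bp. The covered shares of the sites were near these.

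**Figure D4:**
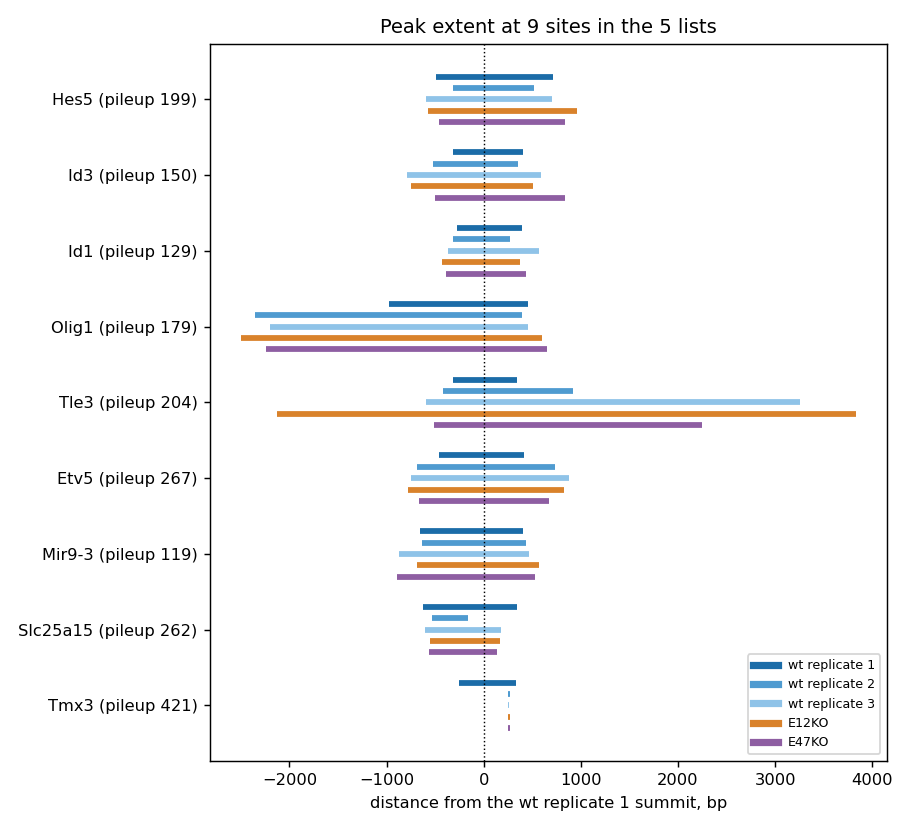
Extent of the peak in each of the 5 lists (horizontal bars) at 9 of the sites, as distance in bp from the wt replicate 1 summit (x axis, dotted line at 0). The peaks span the summit in every list at all sites shown but 2: the Slc25a15 peak of wt replicate 2 ends before it, and the Tmx3 peaks of the other 4 lists are under 30 bp wide.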

How the data were processed

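The submitters' processing notes name the aligner BWA (0.7.13), Picard (1.119), the peak caller MACS2 (2.1.0) and the build mm9; for settings and the control of each list the sources used here give nothing. Per the file headers, the deposited wt replicate 1 table gives each peak's pileup (a signal), −log10 p and q values and fold enrichment (a ratio); the other deposited tables give position, width, annotation and distance only. Sequencing depth is not known from these tables, and the input library was not analysed here. From the tables, overlaps of at least 1 bp were computed with Python 3.11.15, pandas 2.3.3, numpy 2.4.6, scipy 1.17.1 and matplotlib 3.10.9, taking the peak that shared most bases; the overlap code was checked on simulated peaks. Groups came from the labels. Named sites were the 25 with the highest pileup, all at genes of the 17 lists, the 5 widest and 5 narrowest in E12KO, 3 on each side of the minimum, sites sharing a gene, and promoter sites. Members and gene lists were chosen with earlier results of these data known. Intervals are Wilson 95% and cover counting error only. No test was made. Alternatives were other pileup minimums, a stricter overlap, leaving out wt replicate 2 or 3, leaving out peaks under 150 bp and, added later, a fold of 5 or more. Of the sites the rule names, some are not reported here.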

Additional observations from a re-analysis of the deposited data

How the results depend on the processing

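Of the recomputed values, 99 moved by less than the spread they were set against and 19 by more. For widths and distances that spread was the SD over 3 wild-type lists, and for offsets over 2, so it is itself uncertain. For distances it also holds the difference between the far edge used in wt replicate 1 and the near edge in the others. A distance counted as moved by less than the spread may thus reflect that convention. With a pileup minimum of 60 there were 581 sites, 67 of them at list genes. Median offsets of peak centres from the wt replicate 1 summit were then 70.5, 101.0 and 84.5 bp in wt replicate 2, E12KO and E47KO. With a minimum of 100 there were 186, 20 of them at list genes, with a median distance of 30327 bp and offsets of 74.8, 102.2 and 91.5 bp in wt replicates 2 and 3 and E47KO. Without the need for wt replicate 2 there were 329 sites, 13.7% of them at promoters, and the median distance was 25139 bp. Without wt replicate 3 the median distance was 27651 bp. Leaving out peaks under 150 bp in the other lists, or sites under a fold of 5 (added after the data were seen), gave summits covered at 100% of sites in wt replicate 3, E12KO and E47KO, since both drop Tmx3 and Mid1. Any CANNTG was in 68.2% of promoter stretches. A 50 bp window at summits was not run because no mm9 sequence was used. Wild-type replicate 1 could not be left out, since it chose the sites. No paired analysis was possible because the knockouts are 1 library each and no test was made. Depth is unknown, so a site missing from a list may be one that was not detectable there.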
